A study of Mus musculus with 12 samples.

Results

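The genes described here code for proteins of the extracellular matrix other than collagens and laminins, and for the enzymes and inhibitors that process the matrix. A list of 40 mouse genes was matched to the array annotation, and a gene was kept where at least 1 probe set named it as its only symbol. By this rule 35 genes with 86 probe sets were kept, of 18193 genes with 34945 such probe sets in the whole series. The kept genes lie on 19 different chromosomes. Fbn1 and Efemp2 were not analysed here, and Loxl2 stood only on probe sets shared with a further gene model. Ctgf and Cyr61 carry the symbols Ccn2 and Ccn1 in the array annotation, so their values are given below, outside the counts.

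The arrays compared haploid with diploid epiblast stem cells (EpiSCs), cells cultured in the pluripotent state of the postimplantation epiblast. The 12 arrays held 3 labelled biological replicates of each of 4 lines: haploid EpiSC-2 and haploid EpiSC-1, both of strain 129Sv, and diploid EpiSC-2 and diploid EpiSC-1, both of strain B6D2F1. The medium was N2B27, supplemented in every line with the growth factors bFGF and Activin A, and no drug or genetic change is named in the labels. Every haploid line was 129Sv and every diploid line B6D2F1, so ploidy and strain cannot be told apart, and each ploidy is represented by 2 lines. The numbers 1 and 2 in the names were taken to mean separate lines. The labels do not tie a numbered haploid line to the diploid line of the same number, and they do not say whether replicates were separate cultures. The share of cells that were still haploid at harvest is not given in the labels.

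The matrix outside a cell is a mesh of fibres and soluble proteins that holds cells in place and stores growth factors. Fibronectin and related glycoproteins tie cell-surface integrins to the mesh, matricellular proteins such as tenascin and the thrombospondins tune adhesion without bearing load, and fibrillins and fibulins build elastic fibres. Lysyl oxidases crosslink collagen and elastin, matrix metalloproteinases cut matrix proteins, and TIMPs block them. In the early embryo the epiblast is an epithelium on a basement membrane, and fibronectin is needed for mesoderm to form properly after the cells leave it.

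Values are MAS5 signals, a linear probe-set intensity that the authors scaled to a common level on each array. Log2 differences were tested with limma, and a gene was called where its Benjamini-Hochberg adjusted p was under 0.05 over the 11105 genes tested. In the haploid against diploid fit the line was a random block. A gene was tested where its mean log2 signal over the 12 arrays reached that of the median probe set, a signal of 62.6, and it was represented by its brightest probe set. Replicates of a line correlated at 0.989 to 0.992 on the log2 scale. The ratio of 3′ to 5′ actin probe sets, a sign of RNA quality, was 1.34 to 1.42 on haploid arrays and 1.46 to 1.68 on diploid arrays. The same ratio for Gapdh overlapped, at 0.836 to 0.870 on haploid arrays and 0.821 to 0.938 on diploid arrays. The part of these ratios in the results was not tested.

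The labelled cell type was checked against 11 EpiSC markers. Pou5f1, the pluripotency factor Oct4, averaged 6884 in haploid EpiSC-2, 4264 in haploid EpiSC-1, 8879 in diploid EpiSC-2 and 9595 in diploid EpiSC-1. Otx2 and Fgf5, which mark the primed state, averaged 74.0 and 86.9 in haploid EpiSC-1, near the filter, and 2133 to 3962 and 2332 to 3621 across the other 3 lines. Of the 11, 4 were lower in haploid cells (Tdgf1, Dnmt3b, Pou5f1 and Otx2), 6 were not called and 1 was higher, Sox2. Of all genes tested, 7.54% were lower and 9.69% higher. Sox2 averaged 3383 in haploid EpiSC-2, 4537 in haploid EpiSC-1, 1175.5 in diploid EpiSC-2 and 1005 in diploid EpiSC-1, a difference of 1.85 ± 0.17 (SE, adjusted p = 2.81e-06). With the 4 line means as the units, Sox2 and Tdgf1 were still called. The limma adjusted p was then 0.133 for Dnmt3b, 0.156 for Pou5f1 and 0.334 for Otx2. The summed signal of the 11 markers was 49371 to 50912 in haploid EpiSC-2, 34235 to 34553 in haploid EpiSC-1, 59533 to 61660 in diploid EpiSC-2 and 72843 to 76628 in diploid EpiSC-1. Fibroblast markers followed the ploidies in the other direction. The summed signal of 12 of them was 28498 to 29081 in haploid EpiSC-2, 25543 to 26147 in haploid EpiSC-1, 2275 to 2354 in diploid EpiSC-2 and 1118 to 1236 in diploid EpiSC-1. Of the 9 tested, 7 were higher in haploid cells and 0 lower, against the same shares of all genes, and 6 were higher with line means. The 7 were Pdgfrb, Prrx1, Twist1, Acta2 and the collagen genes Col3a1, Col1a2 and Col1a1, which are matrix genes themselves. Most of the summed signal came from Col3a1, Col1a2 and Acta2, which averaged 7309, 5044.5 and 12964 in haploid EpiSC-2. In haploid EpiSC-1 these averaged 8147, 6321 and 7100. Fap and Tcf21 lay under the filter in every line, and Thy1 averaged 118 and 132 in the haploid lines, against 109 and 203 in the diploid lines. In a bulk sample, more cells of a type and more RNA per cell cannot be told apart, and the part of these markers in the results below was not tested.

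The question of the main comparison was how haploid EpiSCs differ from diploid EpiSCs. Most of the matrix genes had higher signals in the haploid lines. The members and lists were chosen with earlier results of these data known, so their counts describe them and are not a test. Of the 31 members tested, 22 rose in haploid cells, 1 fell (Spon1) and 8 were not called, where 9.69% of all genes tested rose and 7.54% fell (17.2% in either direction). Of the 22, 21 differed by at least 2-fold, and the share of all genes at that cut is not given here. The median log2 difference was 2.03 over the tested members and 0.0027 over all genes tested. Without the signal filter 23 of 35 members rose and 1 fell, against 10% and 8.04% of 18193 genes, with a median of 1.98 over the members and 0.0042 over those genes.

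**Figure D1:**
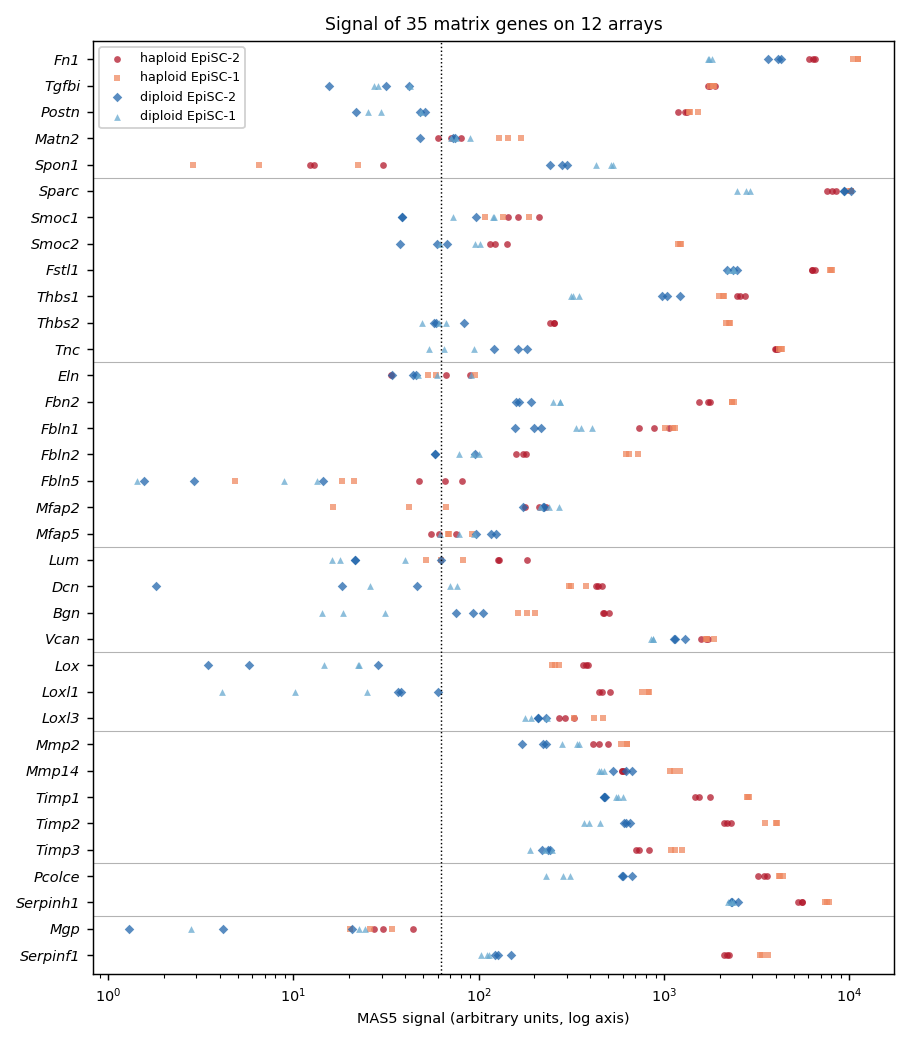
MAS5 signal (x axis, arbitrary units, log scale) of the 35 member genes, a row per gene and a point per array, in rows set apart by role, with red and orange for haploid EpiSC-2 and EpiSC-1 and dark and light blue for diploid EpiSC-2 and EpiSC-1. The dotted line is the signal filter of 62.6. In 24 rows every haploid point lies right of every diploid point, and in the row of Spon1 every haploid point lies left.

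Signals of the 6 haploid and the 6 diploid arrays did not overlap for 24 of 35 members with haploid cells higher, and for 1 with haploid cells lower, against 11.7% and 9.75% of all genes. The other 10, Matn2, Sparc, Smoc1, Eln, Fbln5, Mfap2, Mfap5, Lum, Mmp14 and Mgp, overlapped. Of the tested members, 7 had a diploid mean under the filter and so entered through their haploid signal (Tgfbi, Postn, Thbs2, Dcn, Bgn, Lox and Loxl1), and Spon1 entered through its diploid signal. The other 23 lay at or above the filter in both ploidies, and 16 of these rose. The share that rose among all genes at or above the filter in both ploidies is not given here. With the 4 line means as the units, 14 members rose and 1 fell, against 2.02% and 0.91% of all genes (2.93% in either direction). On simulated arrays with as much spread between lines, 100 of 11105 genes were changed 2-fold and a further 100 4-fold. Most calls of the fit with the line as a block, 372 of 527, were then of unchanged genes. Line means recovered none of the changed genes. Larger differences and a larger share of changed genes were not simulated. With each probe set tested on its own, 51 of 86 rose and 1 fell, against 9.45% and 6.74% of all probe sets. Centring each array on its median lowered the median difference of all genes by 0.12, and 21 members then rose and 1 fell, against 7.31% and 9.78% of all genes.

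**Figure D2:**
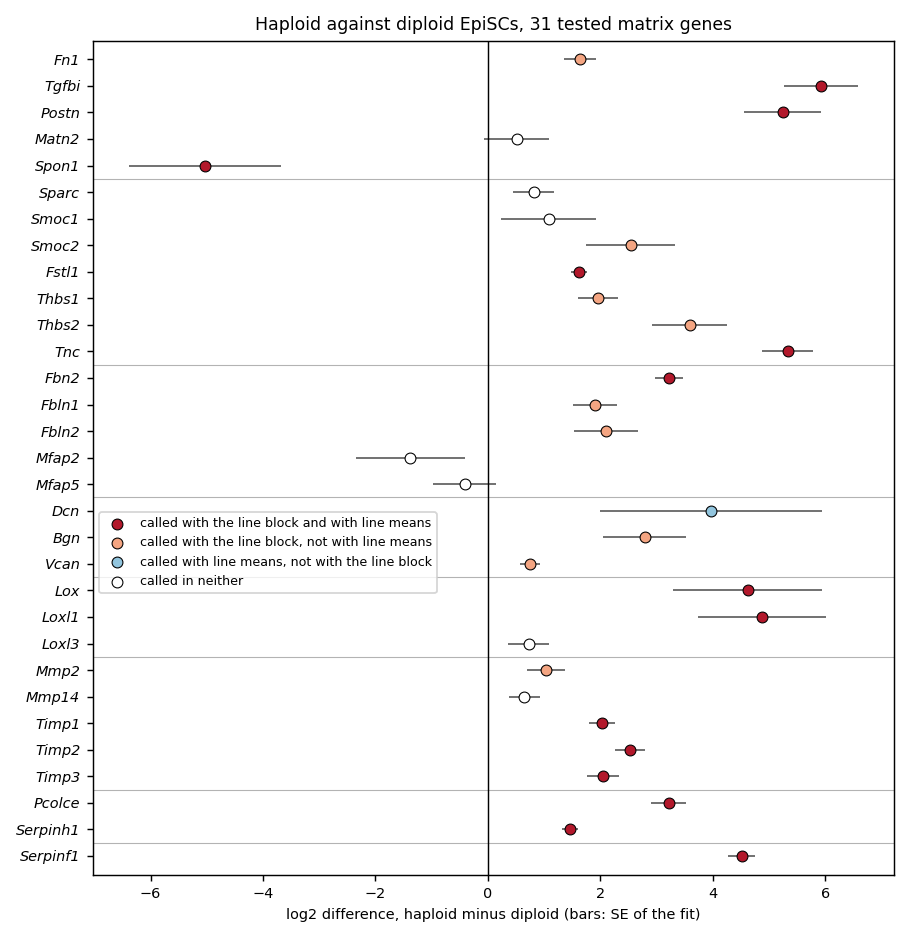
Haploid minus diploid log2 difference of each of the 31 tested members (points) with its standard error (bars), in rows set apart by role, with fill showing whether a member was called with the line as a block, with line means, with both or with neither. Tgfbi stands highest at 5.93 and Spon1 lowest at -5.03, and Dcn is the member called with line means but not with the line block.

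Of the 5 adhesive glycoproteins, 3 rose, 1 fell and Matn2 was not called. Fn1 (chromosome 1), fibronectin itself, had signals of 6034, 6383 and 6511 in haploid EpiSC-2, 11133, 10514 and 11086 in haploid EpiSC-1, 4133, 3638 and 4265 in diploid EpiSC-2 and 1813, 1719.5 and 1754 in diploid EpiSC-1. Each haploid array exceeded each diploid array, and within each ploidy the lines also stood apart. The haploid minus diploid difference was 1.64 ± 0.29 (SE, adjusted p = 0.00095), a 3.12-fold difference. With line means as the units its adjusted p was 0.113, the highest over 26 alternatives, the lowest being 1.90e-05.

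Tgfbi (chromosome 13), a secreted adhesion protein induced by TGF-beta that binds collagens and integrins, averaged 1788 ± 78.5 in haploid EpiSC-2, 1827 ± 50.4 in haploid EpiSC-1, 29.8 ± 13.4 in diploid EpiSC-2 and 32.9 ± 8.59 in diploid EpiSC-1 (SD, n = 3 each). The haploid lines were level with each other and the diploid lines lay under the filter. Its log2 difference was 5.93 ± 0.66 (SE, adjusted p = 1.62e-05), a 60.8-fold difference on signals whose diploid side is near the background. With a pseudocount of 16 the difference was 5.30, and all 4 of its probe sets were called higher, by 4.24 to 7.37. Postn (chromosome 3), periostin, which binds fibronectin and collagen in connective tissue, averaged 1270.5 ± 76.1 in haploid EpiSC-2, 1424 ± 93.1 in haploid EpiSC-1, 40.4 ± 16.2 in diploid EpiSC-2 and 34.6 ± 12.5 in diploid EpiSC-1. Its difference was 5.25 ± 0.68 (SE, adjusted p = 7.57e-05) and 4.71 with the pseudocount.

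The start of Tgfbi is shown because this gene had the largest log2 rise of the members, with motif matches in capitals. It runs from 250 bases before to 50 after the RefSeq start of transcription (GRCm38.p6, 5′ to 3′ on the gene's strand). Both matches are of the Sp1 letters, at -124 and, on the opposite strand, at 16 from the start.
Tgfbi chr13:56609336-56609635 (+): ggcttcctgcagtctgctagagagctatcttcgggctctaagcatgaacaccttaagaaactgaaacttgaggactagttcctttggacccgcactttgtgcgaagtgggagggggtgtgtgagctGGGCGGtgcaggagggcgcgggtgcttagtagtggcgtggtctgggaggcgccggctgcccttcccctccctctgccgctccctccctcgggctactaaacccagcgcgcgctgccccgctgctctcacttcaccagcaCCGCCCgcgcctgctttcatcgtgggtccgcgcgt

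Spon1 (chromosome 7), F-spondin, an adhesion protein first known from the floor plate of the neural tube, ran the other way. It averaged 18.6 ± 10.2 in haploid EpiSC-2, 10.6 ± 10.3 in haploid EpiSC-1, 275 ± 29.3 in diploid EpiSC-2 and 492 ± 53.7 in diploid EpiSC-1, and every diploid array exceeded every haploid array. The difference was -5.03 ± 1.35 (SE, adjusted p = 0.0171), or -3.71 with the pseudocount. It was called on 1 of its 4 probe sets, the mean of all 4 gave -2.001 (adjusted p = 0.0721), and the adjusted p over 25 alternatives ran 2.84e-06 to 0.0721. Matn2 (chromosome 15), matrilin-2, a filament-forming adaptor protein, had signals of 60.4 to 169 in haploid arrays, against 48.2 to 90.2 in diploid arrays, with a difference of 0.52 ± 0.58 (SE, adjusted p = 0.615).

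Of the 7 matricellular genes, 5 rose and Sparc and Smoc1 were not called. Tnc (chromosome 4), tenascin-C, an anti-adhesive glycoprotein of embryonic and healing tissue, averaged 4018 ± 70.7 in haploid EpiSC-2, 4258 ± 86.2 in haploid EpiSC-1, 155 ± 31.3 in diploid EpiSC-2 and 71.04 ± 20.7 in diploid EpiSC-1. Its haploid arrays lay within a narrow band far above the diploid arrays, with a difference of 5.33 ± 0.45 (SE, adjusted p = 1.76e-06), or 40.3-fold. Fstl1 (chromosome 16), a secreted follistatin-like glycoprotein, had signals of 6269, 6268 and 6510.1 in haploid EpiSC-2, 7985, 8110.0 and 7897 in haploid EpiSC-1, 2179.6, 2475 and 2358 in diploid EpiSC-2 and 2392, 2202 and 2346 in diploid EpiSC-1. It rose by 1.62 ± 0.14 (SE, adjusted p = 2.04e-06), and the diploid lines were level with each other.

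Thbs1 (chromosome 2), thrombospondin-1, which binds matrix and can activate latent TGF-beta, had signals of 2482, 2586 and 2733 in haploid EpiSC-2, 2112, 1991 and 2074 in haploid EpiSC-1, 1040.3, 976 and 1219 in diploid EpiSC-2 and 348, 325 and 315 in diploid EpiSC-1. Every line stood apart from every other, with both haploid lines on top. The rise was 1.96 ± 0.36 (SE, adjusted p = 0.00139), and its adjusted p was 0.12 with line means, the highest over 26 alternatives, the lowest being 5.06e-07. Sparc (chromosome 11), osteonectin, a collagen-binding counter-adhesive protein, had signals of 8105, 8499.7 and 7538 in haploid EpiSC-2, 9610.0, 10189 and 10266 in haploid EpiSC-1, 9410.3, 9331 and 10164 in diploid EpiSC-2 and 2469.8, 2902 and 2782 in diploid EpiSC-1. Diploid EpiSC-1 was the low line, and diploid EpiSC-2 lay among the haploid arrays. Its difference of 0.81 ± 0.36 (SE, adjusted p = 0.139) was not called. Without diploid EpiSC-2 it was 1.73 (adjusted p = 2.75e-05), and without diploid EpiSC-1 it was -0.10 (adjusted p = 0.716), within 2.75e-05 to 0.716 over 26 alternatives.

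Thbs2 (chromosome 17), thrombospondin-2, an inhibitor of vessel growth that also affects collagen fibrils, had signals of 256, 254 and 242 in haploid EpiSC-2, 2263, 2249.9 and 2148 in haploid EpiSC-1, 58.8, 57.5 and 83.2 in diploid EpiSC-2 and 60.8, 49.5 and 66.9 in diploid EpiSC-1. Haploid EpiSC-1 was high, haploid EpiSC-2 intermediate, and the diploid lines lay around the filter. The rise over both haploid lines was 3.59 ± 0.67 (SE, adjusted p = 0.00149). Leaving out haploid EpiSC-1 brought it to 2.01 and leaving out haploid EpiSC-2 to 5.16, and over 26 alternatives the adjusted p was 5.60e-06 to 0.111, highest with line means. Smoc2 (chromosome 17), a calcium-binding relative of Sparc, followed the same order, with signals of 114, 122 and 142 in haploid EpiSC-2, 1188, 1231 and 1219.7 in haploid EpiSC-1, 59.3, 37.4 and 67.3 in diploid EpiSC-2 and 102, 95.6 and 61.95 in diploid EpiSC-1. Haploid EpiSC-1 alone was far above the diploid lines. The call on both haploid lines, 2.54 ± 0.79 (SE, adjusted p = 0.0363), was lost without any 1 of the 3 haploid EpiSC-1 arrays, and the difference was 0.91 without that line (adjusted p = 0.442, over 25 alternatives 0.000314 to 0.442). Smoc1 (chromosome 12), a BMP antagonist of the same family, had signals of 108 to 212 in haploid arrays, against 38.5 to 121 in diploid arrays, with a difference of 1.08 ± 0.84 (SE, adjusted p = 0.44).

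**Figure D3:**
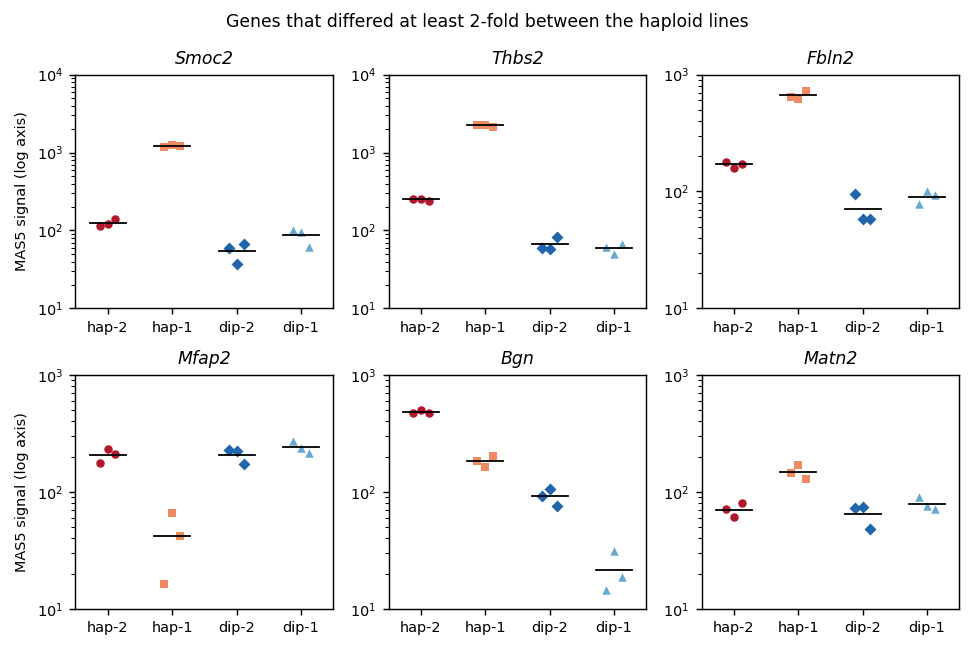
MAS5 signals (log axis) of members that differed at least 2-fold between the haploid lines, as points per array with a bar at the mean of each line, where hap-2 and hap-1 are haploid EpiSC-2 and EpiSC-1 and dip-2 and dip-1 the diploid lines. Thbs2 and Smoc2 are high in haploid EpiSC-1, while Bgn and Mfap2 have their higher haploid signals in EpiSC-2.

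Elastic fibre genes held 5 tested members, of which Fbn2, Fbln1 and Fbln2 rose and Mfap2 and Mfap5 were not called. Fbn2 (chromosome 18), fibrillin-2, the fibrillin of embryonic microfibrils, had signals of 1543, 1718 and 1773 in haploid EpiSC-2, 2386, 2339 and 2342 in haploid EpiSC-1, 191, 158 and 164 in diploid EpiSC-2 and 250.4, 276 and 276 in diploid EpiSC-1. Both haploid lines were far above both diploid lines, with a difference of 3.22 ± 0.25 (SE, adjusted p = 6.63e-07) that was called under each of 26 alternatives. Fbln1 (chromosome 15), a fibulin of elastic fibres and basement membranes, averaged 892 ± 167 in haploid EpiSC-2, 1095 ± 74.4 in haploid EpiSC-1, 191 ± 31.6 in diploid EpiSC-2 and 365 ± 37.8 in diploid EpiSC-1. It rose by 1.90 ± 0.39 (SE, adjusted p = 0.00297), with adjusted p over the alternatives of 1.51e-05 to 0.0851.

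Fbln2 (chromosome 6), a fibulin of vessels and cartilage, had signals of 180.3, 159.8 and 173 in haploid EpiSC-2, 647, 622 and 726 in haploid EpiSC-1, 95.7, 58.3 and 57.99 in diploid EpiSC-2 and 78.4, 100.1 and 93.2 in diploid EpiSC-1. Haploid EpiSC-1 was the high line, and haploid EpiSC-2 lay above the diploid arrays by a smaller step. The rise was 2.10 ± 0.57 (SE, adjusted p = 0.0184), but 1.12 without haploid EpiSC-1 and 0.99 as the mean of its probe sets, neither of them called (adjusted p = 0.207 and 0.555, over the alternatives 0.000843 to 0.555). Mfap2 (chromosome 4), a microfibril-associated glycoprotein, had signals of 16.3 to 232 in haploid arrays, against 174 to 271 in diploid arrays, with a difference of -1.38 ± 0.97 (SE, adjusted p = 0.382). Mfap5 (chromosome 6), its relative, had signals of 55.4 to 92.05 in haploid arrays, against 61.5 to 124 in diploid arrays, with a difference of -0.42 ± 0.57 (SE, adjusted p = 0.692). Eln (chromosome 5), elastin, had signals of 33.6 to 95.2 in haploid arrays, against 33.99 to 91.3 in diploid arrays. Fbln5 (chromosome 12), which helps elastin onto microfibrils, had signals of 4.83 to 81.2 in haploid arrays, against 1.44 to 14.5 in diploid arrays. Both were under the filter and overlapped between the ploidies.

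Among the proteoglycans 2 of 3 tested members rose. Bgn (chromosome X), biglycan, a small leucine-rich proteoglycan that binds collagen and TGF-beta, had signals of 471, 502 and 473 in haploid EpiSC-2, 182, 164 and 201 in haploid EpiSC-1, 92.9, 105 and 75.8 in diploid EpiSC-2 and 14.3, 31.1 and 18.5 in diploid EpiSC-1. Haploid EpiSC-2 was highest and diploid EpiSC-1 lowest, with no overlap between any 2 lines. The rise was 2.79 ± 0.74 (SE, adjusted p = 0.0156). It was 2.09 (adjusted p = 0.105) without haploid EpiSC-2, within 0.000758 to 0.132 over the alternatives. Vcan (chromosome 13), versican, a large proteoglycan that binds hyaluronan, averaged 1667 ± 69.2 in haploid EpiSC-2, 1752 ± 93.2 in haploid EpiSC-1, 1192 ± 90.6 in diploid EpiSC-2 and 863 ± 11.4 in diploid EpiSC-1. It rose by 0.75 ± 0.18 (SE, adjusted p = 0.0091), with 3 of its 8 probe sets called higher and an adjusted p over the alternatives of 8.85e-05 to 0.443.

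Dcn (chromosome 10), decorin, which binds collagen fibrils and TGF-beta, had signals of 306 to 461 in haploid arrays, against 1.80 to 76.8 in diploid arrays. All 6 haploid arrays were above the 6 diploid arrays, which scattered widely near the background. Its difference of 3.97 ± 1.98 (SE, adjusted p = 0.194) was not called, but was under 6 of 25 alternatives, among them the pseudocount, line means and the omission of replicate 3 of diploid EpiSC-2, with an adjusted p over the alternatives of 0.000572 to 0.405. Lum (chromosome 10), lumican of the cornea and skin, was under the filter with signals of 52.2 to 183 in haploid arrays, against 16.2 to 62.8 in diploid arrays.

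Both Lox (chromosome 18) and Loxl1 (chromosome 9), lysyl oxidases that crosslink collagen and elastin, rose and had a diploid level under the filter. Lox averaged 378 ± 13.04 in haploid EpiSC-2, 259.9 ± 12.4 in haploid EpiSC-1, 12.7 ± 13.98 in diploid EpiSC-2 and 19.9 ± 4.48 in diploid EpiSC-1, a difference of 4.62 ± 1.32 (SE, adjusted p = 0.0239), or 3.42 with the pseudocount. Loxl1 averaged 473 ± 32.7 in haploid EpiSC-2, 805 ± 35.9 in haploid EpiSC-1, 44.97 ± 13.4 in diploid EpiSC-2 and 13.1 ± 10.8 in diploid EpiSC-1, a difference of 4.87 ± 1.14 (SE, adjusted p = 0.00754), or 3.95 with the pseudocount. The 2 haploid lines stood in opposite order for these genes, with no overlap of their arrays for either gene. Neither difference between the haploid lines was called in the fit of all 4 lines, and both were in a fit of the haploid arrays alone (adjusted p = 0.000789 for Lox and 1.30e-05 for Loxl1). The Lox call was lost without haploid EpiSC-1 (adjusted p = 0.0506) and without haploid EpiSC-2 (adjusted p = 0.0586), and over the alternatives its adjusted p ran 4.26e-06 to 0.0586. Loxl3 (chromosome 6), of the same family, had signals of 272 to 471 in haploid arrays, against 179 to 235 in diploid arrays, and its difference of 0.73 ± 0.36 (SE, adjusted p = 0.194) was not called.

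All 3 inhibitors of metalloproteinases rose, and so did Mmp2, while Mmp14 was not called. Timp1 (chromosome X) had signals of 1554, 1772 and 1469 in haploid EpiSC-2, 2794, 2889.9 and 2839 in haploid EpiSC-1, 477, 472 and 478 in diploid EpiSC-2 and 566, 601 and 553 in diploid EpiSC-1. Timp2 (chromosome 11), which also takes part in the activation of the Mmp2 proenzyme, had signals of 2119, 2296 and 2197 in haploid EpiSC-2, 4024, 3522 and 4072 in haploid EpiSC-1, 624, 609 and 653 in diploid EpiSC-2 and 454, 369 and 393 in diploid EpiSC-1. Timp3 (chromosome 10), the inhibitor that stays bound to the matrix, had signals of 825, 729.5 and 704 in haploid EpiSC-2, 1152, 1097 and 1256 in haploid EpiSC-1, 238, 218 and 242 in diploid EpiSC-2 and 229, 249 and 189 in diploid EpiSC-1. In each of the 3 genes haploid EpiSC-1 was the highest line and haploid EpiSC-2 the next, above every diploid array. The rises were 2.03 ± 0.23 (SE, adjusted p = 1.99e-05) for Timp1, 2.53 ± 0.27 (SE, adjusted p = 1.09e-05) for Timp2 and 2.05 ± 0.29 (SE, adjusted p = 0.000143) for Timp3, each called under all 26 alternatives.

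Mmp2 (chromosome 8), gelatinase A, had signals of 499.6, 445 and 415 in haploid EpiSC-2, 635, 589.6 and 630.0 in haploid EpiSC-1, 171, 223 and 231 in diploid EpiSC-2 and 349.8, 339 and 282 in diploid EpiSC-1. Haploid EpiSC-1 was highest and diploid EpiSC-2 lowest, and the gap between haploid EpiSC-2 and diploid EpiSC-1 was narrow. The rise was 1.03 ± 0.34 (SE, adjusted p = 0.0442), a 2.05-fold difference, and the call was lost under 16 of 26 alternatives, where the 26 gave an adjusted p of 0.00043 to 0.183. The 16 include leaving out any replicate of haploid EpiSC-1, replicate 1 or 2 of haploid EpiSC-2, replicate 2 of diploid EpiSC-2, or replicate 2 or 3 of diploid EpiSC-1. The dimmer of its 2 probe sets, tested on its own, gave 1.80 (adjusted p = 0.000387), and the mean of both gave 1.42 (adjusted p = 0.00193). Mmp14 (chromosome 14), a membrane-bound metalloproteinase that activates Mmp2, averaged 598 ± 9.72 in haploid EpiSC-2, 1138 ± 73.1 in haploid EpiSC-1, 608 ± 69.98 in diploid EpiSC-2 and 460.0 ± 15.6 in diploid EpiSC-1. Its 3 haploid EpiSC-2 arrays lay among those of diploid EpiSC-2, and the difference of 0.64 ± 0.28 (SE, adjusted p = 0.124) was not called. It was 1.11 (adjusted p = 0.00591) without haploid EpiSC-2, within 0.00591 to 0.704 over the alternatives. Tested on their own, 1 of its 3 probe sets was called higher, with 1.14 (adjusted p = 0.0233).

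**Figure D4:**
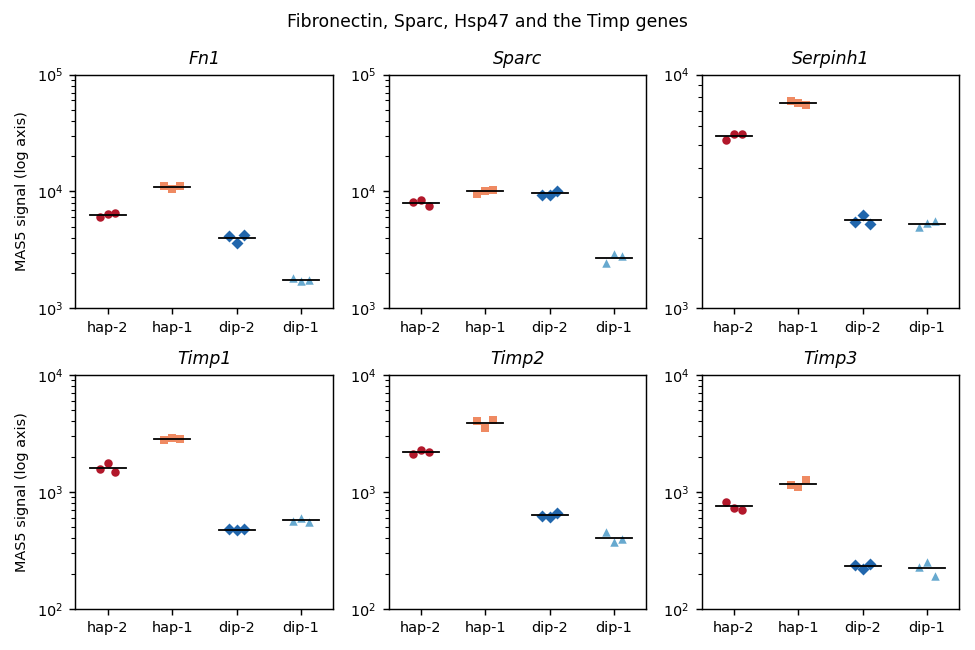
MAS5 signals (log axes) of fibronectin, Sparc, Serpinh1 and the 3 Timp genes, as points per array with a bar at the mean of each line, haploid lines to the left. Timp1, Timp2 and Timp3 and Serpinh1 separate the ploidies, Fn1 differs between all 4 lines, and Sparc is low in diploid EpiSC-1.

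Both genes of collagen processing rose. Serpinh1 (chromosome 7), the collagen chaperone Hsp47 of the endoplasmic reticulum, had signals of 5269, 5550.5 and 5563 in haploid EpiSC-2, 7744, 7582 and 7412 in haploid EpiSC-1, 2334, 2515 and 2298 in diploid EpiSC-2 and 2220.3, 2308 and 2369.5 in diploid EpiSC-1. Pcolce (chromosome 5), which enhances removal of the C-terminal propeptide of fibrillar procollagens, had signals of 3476, 3580.3 and 3222 in haploid EpiSC-2, 4212, 4196 and 4398 in haploid EpiSC-1, 603, 592 and 669 in diploid EpiSC-2 and 232, 309 and 286 in diploid EpiSC-1. The diploid lines were level for Serpinh1 and apart for Pcolce. Serpinh1 rose by 1.46 ± 0.15 (SE, adjusted p = 7.16e-06) and Pcolce by 3.21 ± 0.31 (SE, adjusted p = 4.75e-06), a 9.27-fold difference.

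Serpinf1 (chromosome 11), pigment epithelium-derived factor, a secreted serpin that restrains vessel growth and binds collagen, had signals of 2187, 2249.6 and 2104 in haploid EpiSC-2, 3388, 3298 and 3621 in haploid EpiSC-1, 149, 126 and 122 in diploid EpiSC-2 and 111, 113 and 103 in diploid EpiSC-1. Haploid arrays were far above diploid arrays in both lines. Its rise of 4.51 ± 0.24 (SE, adjusted p = 2.47e-08), or 22.8-fold, had the lowest adjusted p of the members. Mgp (chromosome 6), matrix Gla protein, an inhibitor of calcification, was under the filter with overlapping signals of 20.2 to 44.4 in haploid arrays, against 1.30 to 24.3 in diploid arrays.

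The starts of Serpinf1 and Thbs2 are shown beside that of Tgfbi because both genes were called higher in haploid cells while they differed in how the haploid lines compared. Capitals mark matches of the same motifs on either strand. Serpinf1 holds the CCAAT letters at -241, -160 and -148 and the Smad letters at -38. Thbs2 holds CCAAT at -144 and, on the opposite strand, TATAAA at -126, CCAAT at -186 and the Smad letters at -67 and -44.
Serpinf1 chr11:75422574-75422873 (-): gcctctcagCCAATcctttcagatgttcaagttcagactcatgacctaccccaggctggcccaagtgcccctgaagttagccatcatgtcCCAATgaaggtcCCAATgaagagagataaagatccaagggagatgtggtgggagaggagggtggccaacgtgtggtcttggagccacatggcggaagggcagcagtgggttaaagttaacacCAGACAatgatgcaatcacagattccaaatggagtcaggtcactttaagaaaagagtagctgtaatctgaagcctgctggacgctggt
Thbs2 chr17:14694213-14694512 (-): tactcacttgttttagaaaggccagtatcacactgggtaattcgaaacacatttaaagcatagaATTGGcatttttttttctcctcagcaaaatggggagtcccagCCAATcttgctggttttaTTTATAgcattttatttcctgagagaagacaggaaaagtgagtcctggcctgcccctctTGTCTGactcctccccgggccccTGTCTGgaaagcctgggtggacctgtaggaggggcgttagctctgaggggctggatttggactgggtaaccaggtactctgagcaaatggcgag

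RefSeq promoter windows were at hand for 19 members, in 24 windows of 300 bases, of 32851 windows in the table. The TATA box (TATAAA), the CCAAT box, and letters bound by Sp1 (GGGCGG), by TEAD factors (GGAATG), by AP-1 (TGANTCA) and by Smads (CAGACA) were searched on both strands, and none of these contains another. GGGCGG was found in 16 of the 24 windows (66.7%), against 35.7% of all windows. CAGACA was found in 10 (41.7%), against 21%, CCAAT in 9 (37.5%), against 37.4%, and TATAAA in 4 (16.7%), against 13.6%. GGAATG was found in 2 (8.33%), against 14.7%, and TGANTCA in 0, against 7.81%. Some windows belong to the same gene, and a match of letters describes the sequence and does not show a bound factor.

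The other matrix genes were counted in the same haploid against diploid fit. Of 20 other matrix glycoproteins and proteoglycans tested, 6 rose and 0 fell, with a median difference of 0.46, where 9.69% of all genes tested rose and 7.54% fell, and 3 rose with line means. Igfbp7, a secreted binding protein of insulin-like growth factors, rose by 3.63 ± 0.40 (SE, adjusted p = 1.63e-05). Ltbp1, which anchors latent TGF-beta in the matrix, rose by 2.45 ± 0.24 (SE, adjusted p = 5.96e-06), Emilin1, an elastic fibre glycoprotein, by 2.83 ± 0.62 (SE, adjusted p = 0.00475), and Mfge8, which bridges phosphatidylserine to integrins, by 1.48 ± 0.43 (SE, adjusted p = 0.0266). Mfge8 averaged 1244 in haploid EpiSC-2, 5850.3 in haploid EpiSC-1, 1131 in diploid EpiSC-2 and 829 in diploid EpiSC-1. Haploid EpiSC-1 alone was far above the diploid lines, and its adjusted p was 0.283 with line means. Of 23 other matrix enzymes and inhibitors, 11 rose and 1 fell, with a median of 1.13, and with line means 2 rose and 1 fell. Plat, tissue plasminogen activator, rose by 3.57 ± 0.32 (SE, adjusted p = 2.44e-06). The aggrecan-cleaving protease gene Adamts4 rose by 2.49 ± 0.51 (SE, adjusted p = 0.00333, or 0.106 with line means) and its relative Adamts9 by 1.55 ± 0.29 (SE, adjusted p = 0.00145). Sulf2, a sulfatase of heparan sulfate, was the gene that fell, with a difference of -1.21 ± 0.19 (SE, adjusted p = 0.000403).

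Receptors and regulators of the matrix were mostly not called. Of 18 integrins and other matrix receptors, 7 rose and 0 fell, with a median of 0.61, against the same 9.69% and 7.54% of all genes. The hyaluronan receptor gene Cd44 rose by 2.67 ± 0.36 (SE, adjusted p = 0.000105). Itgav, the integrin subunit alpha V, rose by 1.34 ± 0.22 (SE, adjusted p = 0.000485), Itga8, the alpha 8 subunit, by 2.64 ± 0.45 (SE, adjusted p = 0.000754), and Ddr2, a receptor for fibrillar collagen, by 3.48 ± 0.78 (SE, adjusted p = 0.00603). With line means Ddr2 was the receptor still called, and the adjusted p was 0.0623 for Cd44, 0.0859 for Itgav and 0.0581 for Itga8. Of 13 TGF-beta ligands, receptors and Smads, 4 rose and 0 fell. These were the ligand Tgfb2 with 3.13 ± 0.44 (SE, adjusted p = 0.000142), the receptor Tgfbr2 with 2.15 ± 0.45 (SE, adjusted p = 0.00364), the repressor Ski with 0.84 ± 0.20 (SE, adjusted p = 0.00724) and the transducer Smad2 with 0.56 ± 0.18 (SE, adjusted p = 0.0456). With line means Tgfb2 was called, and the adjusted p was 0.108 for Tgfbr2, 0.134 for Ski and 0.236 for Smad2. Of 13 genes of the Yap and Srf pathway, 3 rose and 0 fell. They were the receptor kinase Axl with 2.84 ± 0.34 (SE, adjusted p = 3.41e-05), the Yap target Ankrd1 with 2.29 ± 0.56 (SE, adjusted p = 0.01) and Wwtr1, which codes for Taz, with 0.54 ± 0.17 (SE, adjusted p = 0.0417), while the cofactor Vgll3 had 1.68 ± 0.61 (SE, adjusted p = 0.0711). With line means Axl was called, and the adjusted p was 0.15 for Ankrd1 and 0.286 for Wwtr1.

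The 2 haploid lines were then compared with each other, to see how far the members vary within a ploidy. Haploid EpiSC-2 had the lower signal for most of the members that differed. Of 31 members, 3 were higher in haploid EpiSC-2, 17 were lower and 11 were not called, where 25.7% of all genes tested were higher and 31% lower (56.6% in either direction). Of the 86 probe sets, 4 were higher and 34 lower, against 12.5% and 15.4% of all probe sets. The median difference was -0.33 over the members and -0.05 over all genes. The differences were mostly small, with 2 members at least 2-fold higher and 4 at least 2-fold lower. The share of all genes at that cut is not given here. Centring arrays on their medians raised the median of all genes by 0.16, and 4 members were then higher and 13 lower, against 37.7% and 19.9% of all genes. The haploid arrays also enter the comparison with diploid cells, so the 2 sets of differences are not independent.

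Smoc2 and Thbs2 had the largest differences of the tested members. Smoc2 was 9.66-fold lower in haploid EpiSC-2, with a difference of -3.27 ± 0.22 (SE, adjusted p = 2.06e-08), and Thbs2 8.87-fold lower, with -3.15 ± 0.15 (SE, adjusted p = 6.42e-10). Fbln2 followed with -1.96 ± 0.19 (SE, adjusted p = 6.33e-07) and Matn2 with -1.07 ± 0.23 (SE, adjusted p = 0.00114). Matn2 averaged 70.4 ± 9.81 in haploid EpiSC-2 and 148 ± 20.01 in haploid EpiSC-1 (SD, n = 3 each). Mfap2 and Bgn ran the other way. Mfap2 averaged 207 ± 27.9 in haploid EpiSC-2 and 41.6 ± 25.1 in haploid EpiSC-1, a difference of 2.53 ± 0.36 (SE, adjusted p = 3.03e-05), and Bgn differed by 1.41 ± 0.24 (SE, adjusted p = 0.000192). The third member that was higher in haploid EpiSC-2 was Thbs1, with 0.34 ± 0.08 (SE, adjusted p = 0.00154).

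Every metalloproteinase and inhibitor of the list was lower in haploid EpiSC-2. The differences were -0.45 ± 0.12 (SE, adjusted p = 0.00653) for Mmp2, -0.93 ± 0.08 (SE, adjusted p = 3.38e-07) for Mmp14 and -0.83 ± 0.07 (SE, adjusted p = 9.62e-08) for Timp1. They were -0.81 ± 0.08 (SE, adjusted p = 5.80e-07) for Timp2 and -0.63 ± 0.11 (SE, adjusted p = 0.000133) for Timp3. For each of these 5 genes the arrays of the 2 haploid lines did not overlap. The share of all genes without such overlap is not given here, and 31% of all genes tested were called lower. With centred arrays the Mmp2 difference was no longer called. Fn1 was also lower, with -0.79 ± 0.06 (SE, adjusted p = 2.75e-08), Fstl1 with -0.33 ± 0.05 (SE, adjusted p = 3.95e-05) and Fbn2 with -0.49 ± 0.08 (SE, adjusted p = 0.000136). The genes of collagen processing were both lower, with -0.47 ± 0.04 (SE, adjusted p = 5.88e-07) for Serpinh1 and -0.32 ± 0.09 (SE, adjusted p = 0.00649) for Pcolce, as was Serpinf1 with -0.66 ± 0.08 (SE, adjusted p = 9.86e-06).

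Of the remaining members, Sparc had -0.32 ± 0.06 (SE, adjusted p = 0.000441) and Loxl3 -0.44 ± 0.14 (SE, adjusted p = 0.0182). The Loxl3 call was lost without 1 of 3 single arrays, replicate 1 or 2 of haploid EpiSC-1 or replicate 2 of haploid EpiSC-2, and also with centred arrays (adjusted p = 0.103) and with quantile normalization (adjusted p = 0.0588). The Sparc and Pcolce calls were lost with centred arrays too. Averaged over a gene's probe sets, calls were lost for Sparc (-0.11, adjusted p = 0.523) and Serpinf1 (-0.60, adjusted p = 0.0563). Tgfbi, Postn and Tnc, the 3 members with the largest rise over diploid cells, had differences between the haploid lines of -0.03 ± 0.27 (SE, adjusted p = 0.932), -0.16 ± 0.28 (SE, adjusted p = 0.64) and -0.08 ± 0.17 (SE, adjusted p = 0.688). Vcan had -0.07 ± 0.06 (SE, adjusted p = 0.345), Dcn 0.42 ± 0.80 (SE, adjusted p = 0.676), Lox 0.54 ± 0.54 (SE, adjusted p = 0.413) and Loxl1 -0.77 ± 0.44 (SE, adjusted p = 0.155). None of Spon1, Smoc1, Fbln1 and Mfap5 was called either. In a fit of the haploid arrays alone, Lox, Loxl1, Dcn (adjusted p = 0.00543) and Fbln1 (adjusted p = 0.0407) were called. Spon1 was called with centred arrays or without replicate 3 of haploid EpiSC-1, Fbln1 with the mean of all probe sets or without replicate 2 of haploid EpiSC-2 or of diploid EpiSC-2, and Loxl1 with the pseudocount or without replicate 1 or 3 of diploid EpiSC-1. Haploid EpiSC-2 also had the higher summed signal of the endoderm markers, 3488 to 3936 against 1238 to 1386 in haploid EpiSC-1, and of the nascent mesoderm markers, 3366 to 3482 against 1181 to 1334. In the endoderm list Sox17 averaged 1340.5 against 33.3 and Foxa2 915 against 40.7, while Sox7, Afp, Cubn and Lama1 averaged less in haploid EpiSC-2. In the mesoderm list Fgf8 averaged 1623 against 645 and Eomes 1013 against 294, while Tbx6 averaged 33.1 against 69.7. The part of these markers in the line differences was not tested.

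**Figure D5:**
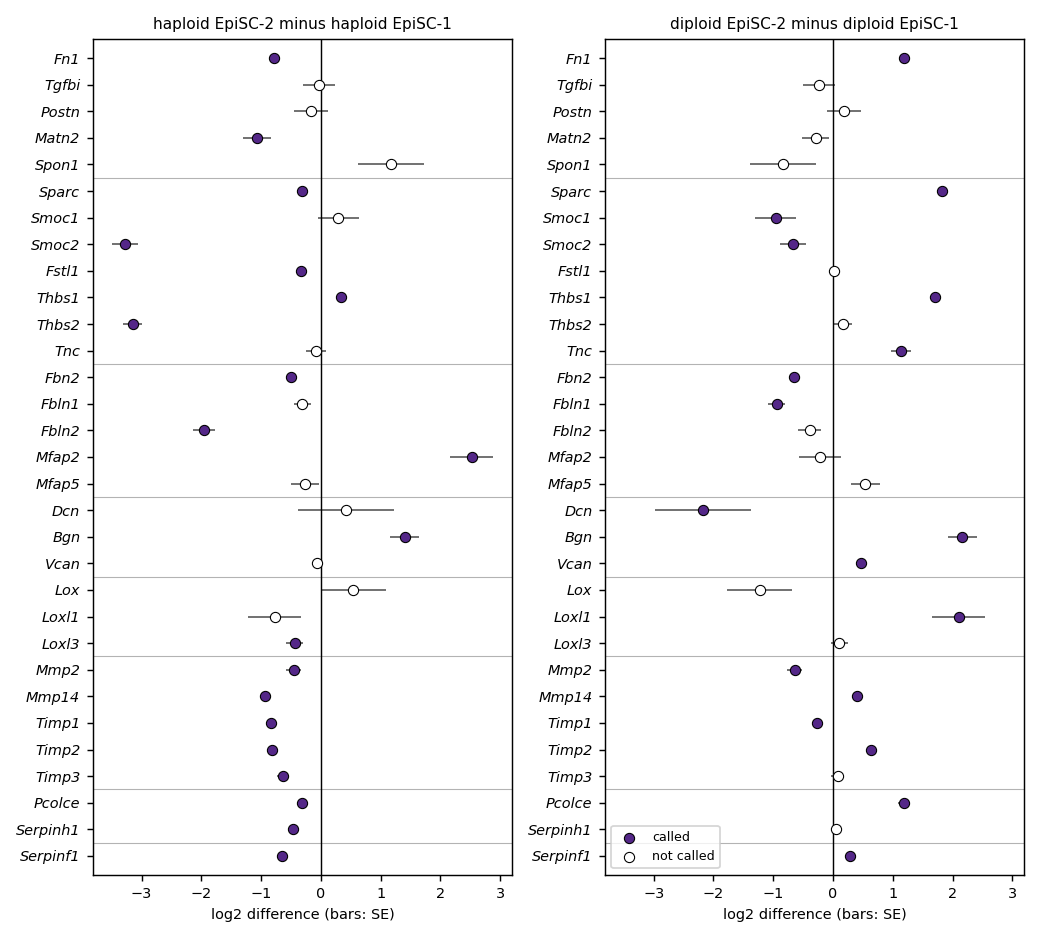
Log2 difference of EpiSC-2 minus EpiSC-1 for each tested member with its standard error (x axes, log2 units), in the haploid lines on the left and the diploid lines on the right. Most called members lie below 0 in the haploid lines, while the diploid lines hold 11 members above 0 and 7 below it.

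Between the diploid lines the members moved in both directions. In diploid EpiSC-2, 11 of 31 members were higher, 7 lower and 13 not called, where 26.4% of all genes tested were higher and 29.4% lower (55.8% in either direction). Of the 86 probe sets, 25 were higher and 11 lower, against 12.8% and 17% of all probe sets. At least 2-fold, 7 were higher and 1 was lower, a cut for which the share of all genes is not given here. The median difference was 0.08 over the members and -0.01 over all genes. Fibroblast markers were also higher in this line, 8 of 9 tested against 1 lower, and their part in the line differences was not tested.

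Bgn had the largest rise of the members, 2.16 ± 0.24 (SE, adjusted p = 3.29e-06), with means of 91.2 ± 14.6 in diploid EpiSC-2 and 21.3 ± 8.70 in diploid EpiSC-1 (SD, n = 3 each). Loxl1 followed with 2.11 ± 0.44 (SE, adjusted p = 0.000964), on signals under the filter in both lines. Sparc was 3.55-fold higher with 1.83 ± 0.06 (SE, adjusted p = 4.98e-12) and Thbs1 3.26-fold higher with 1.71 ± 0.08 (SE, adjusted p = 1.30e-10). Fn1 and Pcolce were each 2.27-fold higher, with 1.18 ± 0.06 (SE, adjusted p = 2.39e-10) for Fn1 and 1.18 ± 0.09 (SE, adjusted p = 4.30e-08) for Pcolce. For Sparc, Thbs1, Fn1 and Pcolce, diploid EpiSC-1 was the lowest of the 4 lines. Tnc was higher by 1.14 ± 0.17 (SE, adjusted p = 3.91e-05). Smaller rises were found for Timp2 with 0.64 ± 0.08 (SE, adjusted p = 6.40e-06), Vcan with 0.46 ± 0.06 (SE, adjusted p = 1.69e-05), Mmp14 with 0.40 ± 0.08 (SE, adjusted p = 0.000906) and Serpinf1 with 0.28 ± 0.08 (SE, adjusted p = 0.0104). Averaged over a gene's probe sets, calls were lost for Timp2 (0.16, adjusted p = 0.514), Vcan (0.083, adjusted p = 0.879), Loxl1 (0.70, adjusted p = 0.339) and Serpinf1 (0.49, adjusted p = 0.115). The third brightest of the 6 Timp2 probe sets was lower in diploid EpiSC-2, with -0.67 (adjusted p = 1.86e-05).

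Lower in diploid EpiSC-2 were Dcn with -2.17 ± 0.80 (SE, adjusted p = 0.0323), Smoc1 with -0.96 ± 0.34 (SE, adjusted p = 0.0272) and Fbln1 with -0.94 ± 0.14 (SE, adjusted p = 4.71e-05). Smoc2 was lower with -0.67 ± 0.22 (SE, adjusted p = 0.0187), Fbn2 with -0.65 ± 0.08 (SE, adjusted p = 1.03e-05), Mmp2 with -0.64 ± 0.12 (SE, adjusted p = 0.000506) and Timp1 with -0.27 ± 0.07 (SE, adjusted p = 0.00307). Single arrays decided some of these. The Dcn call was lost without replicate 1 or 2 of diploid EpiSC-1 or replicate 3 of diploid EpiSC-2. The Smoc1 call was lost without replicate 1 or 3 of diploid EpiSC-1 or replicate 2 or 3 of diploid EpiSC-2. The Smoc2 call was lost without replicate 1 or 2 of diploid EpiSC-1 or replicate 2 of diploid EpiSC-2, and the Serpinf1 call without replicate 1 of diploid EpiSC-2. The choice of probe set or fit decided others. Averaged over probe sets, the Dcn difference was -1.05 (adjusted p = 0.259) and that of Smoc2 -0.71 (adjusted p = 0.128), neither of them called. In a fit of the diploid arrays alone Dcn, Smoc2 and Serpinf1 were not called (adjusted p = 0.088, 0.086 and 0.187) and Spon1 was, with -0.84 (adjusted p = 0.000137). Timp1 was not called with quantile normalization (adjusted p = 0.055). Fstl1, Timp3 and Serpinh1 had differences of 0.01 ± 0.05 (SE, adjusted p = 0.83), 0.08 ± 0.11 (SE, adjusted p = 0.57) and 0.05 ± 0.04 (SE, adjusted p = 0.361), none of them called, though Fstl1 and Serpinh1 were with the mean of all probe sets. Single omissions also added calls, Mfap5 without replicate 3 of diploid EpiSC-1, Fbln2 and Lox without replicate 1 of diploid EpiSC-2 and Postn without its replicate 3.

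The cysteine-rich matricellular genes Ccn2 (Ctgf) and Ccn1 (Cyr61), well-known targets of Yap, were not called between the ploidies on their brightest probe sets. Ccn2 (chromosome 10) had signals of 8184, 8513 and 8295 in haploid EpiSC-2, 5891, 5741 and 6063 in haploid EpiSC-1, 7832, 7300.3 and 7527 in diploid EpiSC-2 and 1286, 1236 and 1224 in diploid EpiSC-1. Diploid EpiSC-1 was the low line, and diploid EpiSC-2 lay between the haploid lines. The haploid minus diploid difference was 1.19 ± 0.48 (SE, adjusted p = 0.0993), and diploid EpiSC-2 exceeded diploid EpiSC-1 by 2.60 ± 0.04 (SE, adjusted p = 1.74e-15), a 6.05-fold difference. Ccn1 (chromosome 3) had signals of 5424, 5348 and 5185 in haploid EpiSC-2, 3319, 3899 and 4002 in haploid EpiSC-1, 9413, 10006 and 8189 in diploid EpiSC-2 and 3541, 3635 and 3432 in diploid EpiSC-1. On this brightest of 4 Ccn1 probe sets diploid EpiSC-2 was highest and the other 3 lines were lower. Its difference between the ploidies was -0.35 ± 0.32 (SE, adjusted p = 0.509), and between the diploid lines 1.38 ± 0.07 (SE, adjusted p = 1.07e-09). The other probe sets of Ccn1 disagreed. Tested on their own, the next 2 in brightness were higher in haploid cells, by 1.14 (adjusted p = 0.000488) and 1.28 (adjusted p = 0.0001), with averages of 4458 and 4388 in haploid EpiSC-2, 3196 and 3153.5 in haploid EpiSC-1, 1736 and 1539 in diploid EpiSC-2 and 1662 and 1519 in diploid EpiSC-1. The dimmest was lower in haploid cells, with -1.31 (adjusted p = 0.000761). Haploid EpiSC-2 exceeded haploid EpiSC-1 for both genes, by 0.50 ± 0.04 (SE, adjusted p = 1.22e-07) for Ccn2 and 0.51 ± 0.07 (SE, adjusted p = 3.18e-05) for Ccn1. The start of Ccn1 is shown because it was the gene of the list's Yap targets with a window at hand. It holds TATAAA at -25 followed by GGGCGG at -19. On the opposite strand it holds a further Sp1 match at -239 and the TEAD letters at -103.
Ccn1 chr3:145649936-145650235 (-): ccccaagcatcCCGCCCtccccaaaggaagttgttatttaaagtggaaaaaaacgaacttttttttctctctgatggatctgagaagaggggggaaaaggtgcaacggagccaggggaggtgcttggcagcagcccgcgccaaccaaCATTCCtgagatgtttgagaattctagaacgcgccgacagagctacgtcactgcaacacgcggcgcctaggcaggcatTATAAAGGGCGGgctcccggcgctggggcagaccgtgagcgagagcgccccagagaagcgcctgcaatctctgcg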

How the data were processed

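Total RNA of 12 samples was hybridised to Affymetrix mouse 430 2.0 arrays. The deposited values were linear MAS5 intensities, per the submitters' processing notes, with no software version given in the sources used here. Trimmed by 2% at each end, the mean of every array came to 500.0. Of 45101 probe sets, 64 controls were dropped, 34945 named 1 gene symbol, 932 several and 9160 none, and only those with 1 symbol were used. Without detection calls, which were not used here, the size of a fold against a dim signal is uncertain, and the small number of arrays limits precision. Scan dates were not used here either.

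Signals were taken as log2 with no pseudocount and no further normalization, and the probe set with the highest mean stood for each of 18193 genes. The 11105 genes with a mean log2 signal of at least 5.97 were tested in limma 3.58.1 (R 4.3.3, statmod 1.5.0). Haploid and diploid arrays were compared with the line as a random block (duplicateCorrelation, correlation 0.806), and lines of a ploidy in a fit of 4 group means, both with an intensity trend and two-sided Benjamini-Hochberg adjustment over all genes tested. On simulated data the line-of-a-ploidy fits recovered most changed genes with few calls of others. Unchanged genes were given the same level in every line there, so few such calls were built in. With spread between lines, and 100 genes changed 2-fold and 100 changed 4-fold, most calls of the fit with the line as a block were of unchanged genes. Line means recovered no changed gene there, so a single call between the ploidies is uncertain. These shares belong to that setting, and larger differences were not simulated. Where only line means are the units, 2 lines stand against 2.

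Every member with a probe set is named. Values per array are given for members called both between the ploidies and between the haploid lines with an absolute log2 difference of at least 1 in either, and for Sparc, Serpinh1, Ccn1 and Ccn2. From the other lists, up to 4 genes with the lowest p are named. The members and lists were chosen with earlier results of these data known. Replicate numbers did not pair the samples: deviations of same-numbered arrays correlated at -0.0466 to 0.0765, with 0 of 18 pairs over 0.1. P-values measure the spread between the labelled replicates and lines, which may be partly technical. Alternatives were quantile normalization, median centring, a pseudocount of 16, no filter, a filter at a signal of 200, the mean of all probe sets, each probe set on its own, no trend, no line block, line means, a replicate block, a fit of only the 2 lines compared, and each array or line left out. Promoter sequences are those of RefSeq on GRCm38.p6.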

Additional observations from a re-analysis of the deposited data

Results flagged for a closer look

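Members are listed here where the lines of a ploidy differed by at least 2-fold at an adjusted p under 0.05 in limma, which makes the values of that ploidy depend on the line. No array stood apart from the other 5 of its ploidy by Dixon's criterion in any of 70 groups of 6 arrays, a test that flags about 1 in 20 groups by chance. Each group held both lines of a ploidy, and a difference between lines widens its range. The test can therefore miss a deviant array where the lines differ.

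Between the haploid lines 6 members differed this much, and the share of all genes at this cut is not given here. In haploid EpiSC-2 minus haploid EpiSC-1, Smoc2 differed by -3.27, Thbs2 by -3.15, Fbln2 by -1.96 and Matn2 by -1.07 on the log2 scale. Mfap2 differed by 2.53 and Bgn by 1.41.

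Between the diploid lines 8 members did, again without the share of all genes. In diploid EpiSC-2 minus diploid EpiSC-1, Bgn differed by 2.16, Loxl1 by 2.11, Sparc by 1.83, Thbs1 by 1.71, Fn1 by 1.18, Pcolce by 1.18 and Tnc by 1.14, and Dcn by -2.17. Bgn is the member found in both sets. The labels do not tie the line numbers across the ploidies, so its equal sign in both carries no meaning.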

How the results depend on the processing

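Between haploid and diploid cells 769 of 826 values of single members kept their direction and their side of the threshold, 42 lost a call and 13 gained one. Fbn2, Fstl1, Loxl1, Pcolce, Postn, Serpinf1, Serpinh1, Tgfbi, Timp1, Timp2, Timp3 and Tnc were called under every alternative run. With line means as the units, 15 members were called in place of 23, since Fn1, Smoc2, Thbs1, Thbs2, Fbln1, Fbln2, Bgn, Vcan and Mmp2 were lost and Dcn was gained. Under the other alternatives the number called was 16 to 27. Of all genes tested, 1913 were called between the ploidies, 325 with line means, 5508 without the line block and 3290 without the signal filter. Leaving out each replicate in turn gave 21 to 24 members between the ploidies, 19 to 21 between the haploid lines and 15 to 19 between the diploid lines. Same-numbered replicates share only a number, and with the replicate block 21 members were called between the ploidies, without Smoc2 and Mmp2, and 20 and 18 between the haploid and the diploid lines.

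Some differences that were not called changed sign. Between the ploidies these were Matn2 without haploid EpiSC-1 (-0.018) and Sparc without diploid EpiSC-1 (-0.10). Between the haploid lines, with centred arrays, they were Tgfbi (0.13), Tnc (0.075) and Vcan (0.087). Between the diploid lines, with the mean of all probe sets, they were Tgfbi (0.032), Fbln2 (0.11) and Mfap2 (0.54), and Fstl1 with centred arrays (-0.00062). Leaving out single replicates gave -0.54 to 0.18 for Tgfbi, -0.039 to 0.58 for Postn, -0.028 to 0.063 for Fstl1, -0.012 to 0.26 for Thbs2 and -0.036 to 0.16 for Timp3. The cause was not tested.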

Other observations

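Loxl2, a lysyl oxidase, stood on 2 probe sets that the annotation shares with the gene model Gm21451, so these signals cannot be assigned to either gene alone. The brighter of them averaged 2133 ± 87.6 in haploid EpiSC-2, 4506 ± 396 in haploid EpiSC-1, 443 ± 44.5 in diploid EpiSC-2 and 242 ± 16.4 in diploid EpiSC-1 (SD, n = 3 each). The other averaged 368 ± 37.3 in haploid EpiSC-2, 886 ± 110 in haploid EpiSC-1, 149.7 ± 5.19 in diploid EpiSC-2 and 126 ± 8.27 in diploid EpiSC-1. On both probe sets the haploid arrays were higher, with haploid EpiSC-1 on top.

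A probe set shared by Thbs1 and Pald1 averaged 8212 ± 280.0 in haploid EpiSC-2, 7694 ± 373 in haploid EpiSC-1, 6323 ± 296 in diploid EpiSC-2 and 1630 ± 205 in diploid EpiSC-1. Diploid EpiSC-1 was its low line, as it was for the Thbs1 probe set used above. None of these probe sets was tested.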
